A study of Mus musculus with 96 samples.

Results

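The data described here are the counts of 10 genes of transforming growth factor beta (TGF-beta) superfamily signaling in C2C12 cells, a mouse muscle cell line, across differentiation states and inhibitors of mitochondrial respiration. The genes were taken by symbol from a table of 54150 genes, and they encode ligands (Mstn, Inhba, Inhbb, Tgfb1, Tgfb2, Tgfb3 and Bmp4), soluble antagonists (Fst and Fstl3) and a receptor (Acvr2b). RNA was sequenced from 96 samples in 35 conditions, of which 45 samples were proliferating myoblasts, 9 were post-mitotic cells kept 24 h in low serum after confluence (day 1 cells) and 42 were myotubes after 4 days in low serum. Each condition had 3 samples, except 9 conditions with 2.

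All myoblasts were transduced and received 300 ng/ml doxycycline, which induced luciferase (Luc, the control), LbNOX, mitoLbNOX or NDI1. LbNOX is a bacterial NADH oxidase that makes water, mitoLbNOX is the same enzyme directed to mitochondria, and NDI1 is a yeast NADH dehydrogenase that bypasses complex I. Day 1 cells were untransduced, and myotubes were untransduced or carried adenovirus for GFP alone or with LbNOX. Cells were treated for 10 h with DMSO, the complex I inhibitor piericidin (0.5 µM), the complex III inhibitor antimycin (0.5 µM) or the ATP synthase inhibitor oligomycin (1 µM). Untransduced myotubes also received the uncoupler BAM15 (0.5 µM), oligomycin with piericidin or with BAM15, or DMSO or oligomycin at 5% oxygen (hypoxia). The hypoxia samples had been in low oxygen since the night before treatment, so their time in low oxygen was longer than 10 h. Luc and LbNOX myoblasts received DMSO or the mitochondrial translation inhibitor chloramphenicol (20 µg/ml) for 48 h. By the study's methods, pyruvate and uridine were left out of the medium for the acute treatments, whereas the 48 h chloramphenicol treatment had uridine present. C2C12 is 1 cell line, and nothing in the labels says that replicates were independent cultures, so p-values measure the spread between these samples, which may be technical.

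Activins are dimers of inhibin beta subunits, of which Inhba and Inhbb encode A and B. Activins and myostatin bind type II receptors such as the product of Acvr2b, and the signal passes through SMAD2 and SMAD3, as it does for the TGF-betas through their own receptors. BMP4 signals through SMAD1, SMAD5 and SMAD8. Follistatin (Fst) and follistatin-like 3 (Fstl3) bind activins and myostatin and keep them from the receptor. In muscle, myostatin limits growth, and follistatin opposes it.

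Library totals ran from 6458295 to 15366745 counts (median 10336588.5). Muscle differentiation markers (7 genes, among them Myog, Ckm and Acta1) summed to between 18.1 and 23.1 counts per 1000000 (CPM) in Luc DMSO myoblasts, between 13200 and 13800 in day 1 DMSO cells and between 14100 and 14500 in myotube DMSO samples. The 3 cycling markers were lower in DMSO myotubes than in DMSO myoblasts by 3.05 to 3.40 on the log2 scale. The 9 macrophage, endothelial, adipocyte and epithelial markers had a median of 0 CPM and a highest value of 3.51. Levels are TMM-scaled CPM. A log2 fold change comes from edgeR's quasi-likelihood test and is given with its standard error (SE), and a gene passed the test when its p-value, adjusted over all genes tested (Benjamini-Hochberg), was below 0.05. The median log2 fold change of all genes tested lay between -0.024 and 0.07 in every comparison.

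Of the 10 genes, 8 had enough counts (16 or more in all replicates of some condition) for a test in at least 1 fit. Mstn and Tgfb1 had enough in none, and Acvr2b only in the fits that held myotubes. Acvr2b reached the minimum there only in conditions where it was high, so it is left out of the counts of genes that passed, and its adjusted p without the count filter is given beside each of its calls.

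RefSeq promoter sequences (GRCm38.p6) were at hand for 8 of the 10 genes, all but Fst and Tgfb3. The 250 bases before the start of Inhba and Tgfb2, which rose under antimycin in Luc myoblasts, and of Bmp4, which fell there, are shown because these genes moved most in opposite directions. They span chr13:16011601-16011850 (plus strand), chr1:186705990-186706239 (minus strand) and chr14:46390670-46390919 (minus strand). Capitals mark matches, on either strand, to a cAMP response element half-site (TGACG), a GC box (GGGCGG) or a TATA box (TATAAA).
Inhba: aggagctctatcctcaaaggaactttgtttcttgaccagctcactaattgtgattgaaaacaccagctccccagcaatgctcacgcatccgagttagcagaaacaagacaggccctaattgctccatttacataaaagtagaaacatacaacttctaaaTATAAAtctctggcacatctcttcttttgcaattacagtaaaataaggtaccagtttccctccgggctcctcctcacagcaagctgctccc
Tgfb2: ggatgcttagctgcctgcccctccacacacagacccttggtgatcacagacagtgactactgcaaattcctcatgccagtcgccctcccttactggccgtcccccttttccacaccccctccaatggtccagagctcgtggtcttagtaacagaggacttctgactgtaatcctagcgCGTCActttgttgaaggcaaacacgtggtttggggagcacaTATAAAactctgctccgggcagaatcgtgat
Bmp4: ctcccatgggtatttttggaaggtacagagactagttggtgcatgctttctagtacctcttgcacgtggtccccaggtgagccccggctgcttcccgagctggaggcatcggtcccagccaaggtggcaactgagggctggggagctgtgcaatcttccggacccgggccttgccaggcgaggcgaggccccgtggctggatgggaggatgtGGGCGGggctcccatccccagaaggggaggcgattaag
Inhba held 1 TATA box at -91, Tgfb2 1 half-site at -72 and 1 TATA box at -31, and Bmp4 1 GC box at -38, counted from the gene start. Over 32851 promoters of this length, 17.8% held the half-site, 32.7% the GC box and 12.4% the TATA box. Neither the ATF4 composite element (TGATGNAA, 3.45% of promoters), the full cAMP response element (TGACGTCA, 1.55%), the AP-1 site (TGANTCA, 6.75%), the myogenic E-box (CAGCTG, 13%) nor the SMAD4 element (GTCTAGAC, 0.167%) was found in these 3 windows. Such a match is a description of letters only.

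The first comparison asked how the genes differed between states without inhibitor. Differentiated cells had more RNA of follistatin and of most ligands, and less of Inhba. Fst read 5.19, 4.85 and 4.58 CPM in the Luc DMSO myoblasts, 57.1, 48.8 and 56.7 in day 1 DMSO cells and 86.5, 99.6 and 96.6 in DMSO myotubes. The 3 states did not overlap. Fst rose by a log2 change of 3.44 (SE 0.153, adjusted p = 7.64e-18) from myoblasts to day 1 and by 0.84 (SE 0.121, adjusted p = 2.47e-06) from day 1 to myotubes.

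Tgfb3, which encodes TGF-beta 3, read 51.7, 46.3 and 45.8 CPM in myoblasts, 283, 283 and 295 on day 1 and 265, 281 and 275 in myotubes. It rose by 2.54 (SE 0.056, adjusted p = 2.67e-25) to day 1, and the log2 difference from day 1 to myotubes was -0.02 (SE 0.051, adjusted p = 0.761). Tgfb2 read 8.19, 9.90 and 7.33 CPM in myoblasts and 44.2, 48.1 and 47.4 in myotubes, a rise of 2.45 (SE 0.106, adjusted p = 3.13e-18). Bmp4 rose by 1.94 (SE 0.208, adjusted p = 2.18e-09), from a mean of 6.20 to 24.0 CPM, and Inhbb by 1.34 (SE 0.151, adjusted p = 5.9e-09), from 4.92 to 12.4 CPM. These ligands were higher in all 3 myotube samples than in any myoblast sample.

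Inhba went the other way. It read 54.0, 56.5 and 53.4 CPM in myoblasts, 23.5, 24.6 and 24.9 on day 1 and 33.3, 32.99 and 36.9 in myotubes, so that day 1 was the low point. The log2 fold change was -1.21 (SE 0.06, adjusted p = 1.07e-16) from myoblasts to day 1 and 0.54 (SE 0.062, adjusted p = 4.32e-08) from day 1 to myotubes. Fstl3 fell by 0.43 to day 1 (adjusted p = 0.00109), rose by 0.98 from there to myotubes (adjusted p = 2.66e-08) and was higher in myotubes than in myoblasts by 0.55 (adjusted p = 4.33e-05).

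The activin receptor gene Acvr2b was near the detection limit in myoblasts, with 6, 5 and 5 counts in the Luc DMSO libraries against 20, 27 and 20 in DMSO myotubes. Its log2 fold change was 2.25 (SE 0.516, adjusted p = 0.000344, and 0.00521 without the filter), and with plate position in the model it was 1.42 (adjusted p = 0.0694). In all, 7 of the other 7 genes tested passed from myoblasts to day 1 (5 higher, 2 lower, beside 63.6% of all genes), 5 from day 1 to myotubes (5 higher, beside 35.6%) and 7 from myoblasts to myotubes (6 higher, 1 lower, beside 69.4%). The states also differed in serum, confluence, doxycycline and transduction, which cannot be told apart from differentiation here. In bulk RNA, fewer cells of a type and less RNA per cell cannot be told apart.

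Scaled by the length of the merged exons, Tgfb3 was the highest of the 10 genes in each state, at 14.2 ± 0.961 CPM per kb (SD, n = 3) in myoblasts, 84.8 ± 2.1 on day 1 and 81 ± 2.4 in myotubes. Fstl3 (13.8 ± 0.691 in myoblasts) came next to it there, within their SD, and in myotubes Fst (20.5 ± 1.5) and Fstl3 (20.1 ± 0.822) came next and did not differ beyond theirs. Inhba stood at 8.54 ± 0.257 per kb in myoblasts and 5.38 ± 0.341 in myotubes, and Tgfb1 stayed at or below 0.28 per kb in every state.

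**Figure D1:**
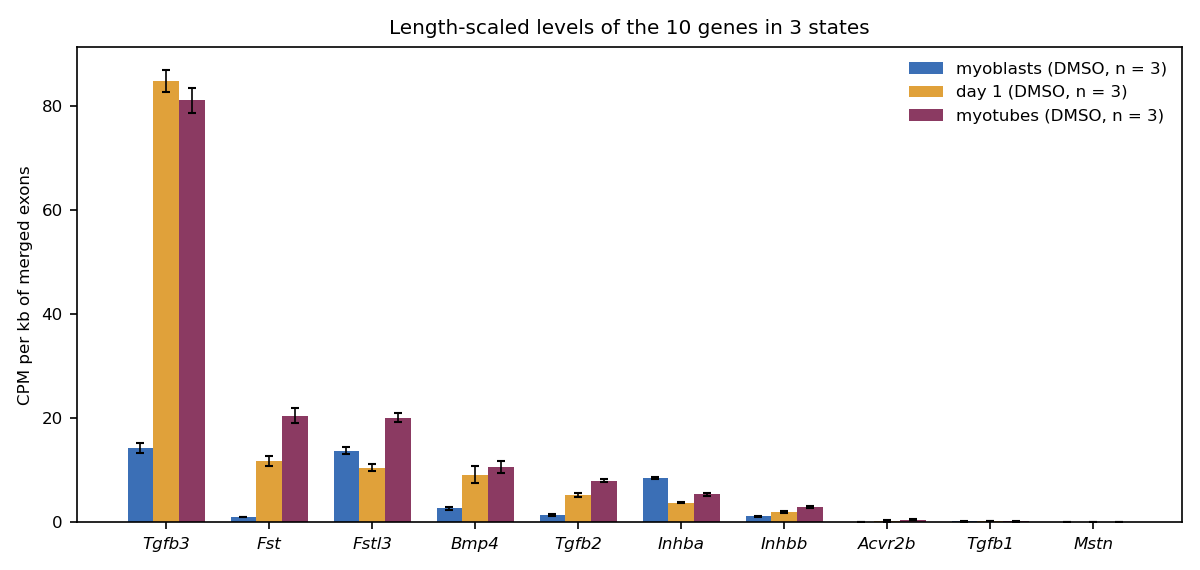
Mean CPM per kb of merged exons (bars, with SD, n = 3) of the 10 genes in DMSO-treated Luc myoblasts, day 1 cells and untransduced myotubes, on a linear axis from 0. Tgfb3 reaches 84.8 on day 1, Fst rises from 1.06 in myoblasts to 20.5 in myotubes, Inhba is highest in myoblasts (8.54), and Mstn is at 0.

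Myostatin itself was at or near the detection limit. Mstn had 0 counts in 73 libraries and 86 counts in all over the other 23, where 3 counts, taken as the floor, correspond to between 0.184 and 0.481 CPM. All DMSO myoblasts with luciferase, day 1 samples and untransduced DMSO myotubes were at 0. The 15 adenovirus-transduced myotube libraries held 69 of the 86 counts, and the 81 other libraries held 17, with at most 4 in one library. With oligomycin, GFP myotubes had 19 and 8 counts and LbNOX myotubes 7, 6 and 4, against 0 and 1 and 0, 2 and 3 in their DMSO controls. Transduced myotubes with piericidin also held Mstn counts, which are listed in the last paragraph. With LbNOX those overlapped the oligomycin counts, and with GFP they lay below them. The ratio of GFP oligomycin to GFP DMSO counts per total was 23.9, with an exact 95% interval of 3.94 to 978 that covers counting error only. Without the count filter, edgeR gave an adjusted p of 0.0114 for this comparison of 2 libraries against 2, and 0.512 for oligomycin in LbNOX myotubes and 0.666 in untransduced myotubes.

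Tgfb1, which encodes TGF-beta 1, had between 0 and 26 counts per library (median 10) and 0 in 2 libraries. Its condition means ran from 0.375 CPM in Luc piericidin myoblasts to 1.56 in LbNOX DMSO myoblasts. Each condition in the order of means overlapped the next, and the gene was left out of the main tests. Without the count filter, the Luc piericidin myoblasts differed from DMSO by -1.33 on the log2 scale (adjusted p = 0.303).

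The next comparisons asked how respiration inhibitors changed these genes in Luc myoblasts. The activin A subunit gene Inhba rose with each inhibitor and most with antimycin. It read 54.0, 56.5 and 53.4 CPM with DMSO, 94.1, 85.8 and 83.4 with oligomycin, 368, 342 and 355 with piericidin and 1281, 1248 and 1221 with antimycin. No 2 of these 4 conditions overlapped. The log2 fold change against DMSO was 0.68 (SE 0.064, adjusted p = 2.35e-10) for oligomycin, 2.71 (SE 0.065, adjusted p = 6.05e-25) for piericidin and 4.54 (SE 0.07, adjusted p = 4.77e-30) for antimycin, the last a 22.9-fold ratio of means. Antimycin myoblasts had the highest Inhba of all 35 conditions.

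Tgfb2 rose with antimycin from 8.19, 9.90 and 7.33 CPM to 48.8, 42.9 and 41.7, a log2 change of 2.41 (SE 0.16, adjusted p = 4.59e-14). With piericidin it reached 14.7, 13.8 and 12.1 CPM (0.68, SE 0.166, adjusted p = 0.000727), and with oligomycin 11.5, 9.61 and 9.22, which overlapped DMSO (adjusted p = 0.229). The antimycin libraries overlapped the DMSO myotubes, which ran from 44.2 to 48.1 CPM.

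Bmp4 and Tgfb3 fell. Bmp4 read 6.01, 6.92 and 5.68 CPM with DMSO, 1.36, 1.31 and 1.47 with piericidin and 1.08, 3.14 and 0.343 with antimycin, the last value being 3 counts. Its log2 fold change was -2.15 (SE 0.317, adjusted p = 9.03e-07) with piericidin and -2.00 (SE 0.312, adjusted p = 1.97e-06) with antimycin, while oligomycin gave -0.26 (adjusted p = 0.424). Tgfb3 fell with all 3 inhibitors, from a mean of 48.0 CPM to 17.3 with piericidin (log2 -1.46, SE 0.095, adjusted p = 3.54e-14), 19.8 with oligomycin (-1.27, SE 0.093, adjusted p = 8.27e-13) and 27.6 with antimycin (-0.77, SE 0.091, adjusted p = 1.72e-08). The DMSO libraries lay above every inhibitor library for Tgfb3.

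Of the antagonists, Fst passed with antimycin, rising from 5.19, 4.85 and 4.58 CPM to 16.8, 12.1 and 13.4 (log2 1.56, SE 0.212, adjusted p = 2.02e-07), and not with piericidin (0.12, adjusted p = 0.676) or oligomycin (-0.34, adjusted p = 0.224). The difference between antimycin and oligomycin was itself 1.91 (SE 0.221, adjusted p = 2.03e-08). Fstl3 rose by 0.33 with piericidin (adjusted p = 0.00489) and 0.55 with antimycin (adjusted p = 1.91e-05). Inhbb, the activin B subunit gene, stayed between 4.00 and 6.18 CPM in these 12 libraries and passed in none of the 3 tests. Counts were 5 of 7 genes with piericidin (3 higher, 2 lower, beside 61.7% of all genes), 6 of 7 with antimycin (4 higher, 2 lower, beside 63.2%) and 2 of 7 with oligomycin (1 higher, 1 lower, beside 50.8%).

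Compared directly, antimycin differed from oligomycin in 6 of 7 genes (beside 50%), with Inhba higher by 3.86 (SE 0.067, adjusted p = 1.7e-27) and Bmp4 lower by 1.75 (SE 0.32, adjusted p = 3.72e-05). Piericidin differed from oligomycin in 4 of 7 (beside 39.2%), with Inhba higher by 2.03 (SE 0.063, adjusted p = 6.98e-21) and Bmp4 lower by 1.89 (SE 0.326, adjusted p = 2.35e-05). Tgfb3 was not separated between piericidin and oligomycin (-0.18, SE 0.099, adjusted p = 0.149). The Tgfb2 difference there (0.43, adjusted p = 0.0359) was lost without either of 4 of the 6 libraries (oligomycin replicate 2 or 3, piericidin replicate 1 or 2), with adjusted p between 0.0788 and 0.125. All these comparisons share the same DMSO or oligomycin samples.

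**Figure D2:**
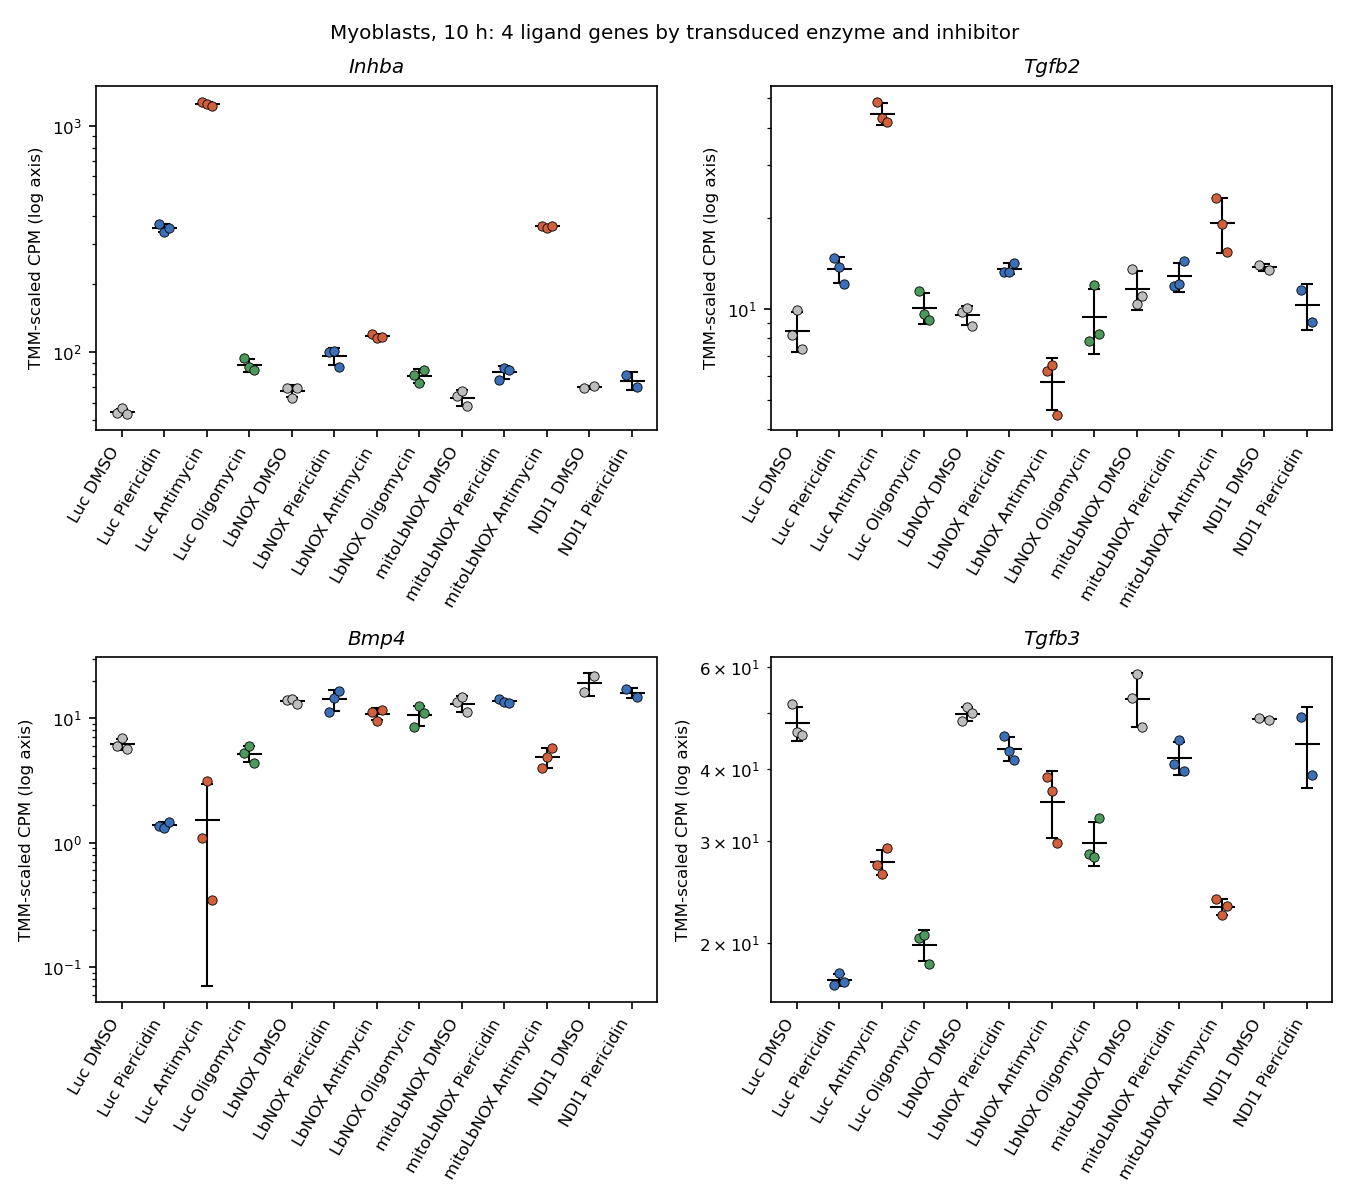
TMM-scaled CPM on log axes of Inhba, Tgfb2, Bmp4 and Tgfb3 in myoblasts treated for 10 h, by transduced enzyme and inhibitor. Points are samples, the horizontal marks are means and the bars SD. Inhba reaches 1250 CPM with antimycin in Luc cells, 360 in mitoLbNOX cells and 118 in LbNOX cells, and Bmp4 falls to 1.38 with piericidin in Luc cells and stays at 14.1 in LbNOX cells.

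Stress response genes moved in the same libraries. Atf4, a transcription factor gene of the integrated stress response, changed by 2.39 (piericidin), 2.78 (antimycin) and 1.66 (oligomycin) on the log2 scale in Luc myoblasts, and its target Ddit3 by 4.6, 5.23 and 4.08. Thus Ddit3 changed with oligomycin by more than 4 log2 units while Inhba changed by 0.68 and Bmp4 did not pass. The summed muscle markers also stood higher with antimycin, between 83.2 and 92.3 CPM against 18.1 to 23.1 with DMSO, while the 3 cycling markers summed to between 460 and 485 against 778 to 810. The 2 epithelial markers (Epcam and Krt8) summed to between 1.14 and 2.24 CPM with antimycin against 0 to 0.0917, and the 3 myoblast markers to between 262 and 278 against 132 to 137. By gene, 2 of the 7 muscle markers were tested, 1 higher and 1 lower (-1.61 to 2.44), and of the 3 myoblast markers 2 were higher and 1 lower (-2.56 to 3.62). With oligomycin the myoblast markers summed to between 78.6 and 90.1 CPM and the cycling markers to between 651 and 672. With piericidin they summed to between 131 and 134 and between 661 and 734. By gene, 1 of the 3 myoblast markers was higher and 2 lower with oligomycin (-1.21 to 0.53) and with piericidin (-1.82 to 2.39). Of the 3 cycling markers, 2 were lower with oligomycin, and 1 was higher and 2 lower with piericidin (-0.79 to 0.18). Their part in the changes of these genes was not tested.

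Around the 10 genes, 100 other genes of the pathway were followed in 6 lists that overlap in part, of which 61 were tested in myoblasts. With antimycin 38 of 61 passed (26 higher, 12 lower, 62.3%), with piericidin 39 (20 higher, 19 lower, 63.9%) and with oligomycin 34 (19 higher, 15 lower, 55.7%), beside the same backgrounds as above. Among listed targets of TGF-beta signaling, 12 of 13 passed with each inhibitor (7 higher, 5 lower each, 92.3%), and among receptors 4 of 13 with each (30.8%), beside 63.2% of all genes with antimycin, 61.7% with piericidin and 50.8% with oligomycin. The median log2 fold change of the targets stood at 0.74 for antimycin, 0.34 for piericidin and 0.19 for oligomycin.

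With antimycin the large changes in these lists included Lrrc32, which encodes a protein that anchors latent TGF-beta at the cell surface (4.67, SE 0.663, adjusted p = 4.24e-07), Itgb8, an integrin subunit that activates latent TGF-beta (-4.45, SE 0.65, adjusted p = 7.02e-07), and the matrix protein gene Ctgf (3.8, SE 0.068, adjusted p = 2.24e-28). With piericidin they included Itgb8 (-2.99, SE 0.537), Lrrc32 (2.55, SE 0.786) and the transcription factor gene Snai2 (2.22, SE 0.079). With oligomycin they included Lrrc32 (2.66, SE 0.763), Itgb8 (-2.51, SE 0.49) and Id2 (-1.79, SE 0.086), which encodes an inhibitor of basic helix-loop-helix factors.

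The enzyme-expressing myoblasts asked whether oxidizing NADH changed these responses. In LbNOX myoblasts Inhba read 69.6, 62.8 and 69.9 CPM with DMSO, 100, 101 and 86.3 with piericidin and 120, 116 and 117 with antimycin. The difference from the Luc response was -2.20 (SE 0.09, adjusted p = 2.08e-18) for piericidin and -3.73 (SE 0.09, adjusted p = 1.91e-24) for antimycin, and yet Inhba still rose within LbNOX cells, by 0.51 (adjusted p = 7.88e-07) and 0.82 (adjusted p = 6.77e-12). In mitoLbNOX cells Inhba rose to 75.7, 85.5 and 83.5 CPM with piericidin and to 362, 355 and 363 with antimycin, from 64.1, 67.4 and 57.8. The antimycin rise of 2.53 (SE 0.065, adjusted p = 5.56e-24) there was smaller than in Luc cells by 2.02 (SE 0.088, adjusted p = 5.86e-17). In NDI1 cells the 2 piericidin samples read 79.6 and 70.3 CPM against 69.3 and 70.8 with DMSO, which overlapped (log2 0.11, SE 0.078, adjusted p = 0.703).

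The fall of Bmp4 with piericidin was not seen past the test in cells with any of these enzymes. Bmp4 read 14.0, 14.3 and 13.1 CPM with DMSO and 11.2, 14.5 and 16.6 with piericidin in LbNOX cells, a log2 change of 0.04 (SE 0.226, adjusted p = 0.948), which differed from that of Luc cells by 2.18 (SE 0.393, adjusted p = 3.45e-05). The corresponding differences were 2.20 (SE 0.392, adjusted p = 3.26e-05) with mitoLbNOX and 1.90 (SE 0.422, adjusted p = 0.00048) with NDI1. With antimycin, Bmp4 fell in mitoLbNOX cells by 1.39 (SE 0.247, adjusted p = 2.39e-05), and its difference from the Luc response, 0.61 (SE 0.405), did not pass (adjusted p = 0.264). In LbNOX cells it read 11.3, 9.52 and 11.7 CPM with antimycin (log2 -0.33, adjusted p = 0.245), a response that differed from that of Luc cells by 1.67 (SE 0.392, adjusted p = 0.000674).

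Tgfb2 reversed its direction in LbNOX cells. With antimycin it was 6.23, 6.51 and 4.45 CPM there, below the DMSO values of 9.78, 10.1 and 8.76, a fall of 0.73 (SE 0.177, adjusted p = 0.00117), and the difference from the rise in Luc cells was -3.14 (SE 0.237, adjusted p = 2.49e-12). In mitoLbNOX cells it rose to 23.4, 19.1 and 15.4 CPM from 13.6, 10.4 and 11.01 (0.73, SE 0.157, adjusted p = 0.000277), less than in Luc cells by 1.68 (SE 0.222, adjusted p = 7.09e-07). For Fst the antimycin rise was smaller by 1.34 with LbNOX (SE 0.299, adjusted p = 0.000389) and by 1.17 with mitoLbNOX (SE 0.304, adjusted p = 0.00346). Markers moved in these libraries too. In LbNOX cells with antimycin the cycling markers summed to between 365 and 386 CPM against 738 to 766 with DMSO, the myoblast markers to between 62.6 and 77.3 against 111 to 123 and the muscle markers to between 34.3 and 39.8 against 16.6 to 23.3. In mitoLbNOX cells with antimycin the cycling markers summed to between 445 and 469 against 711 to 759. The myoblast markers there summed to between 116 and 132 against 108 to 117. By gene, 1 of the 3 was higher and 1 lower (-1.76 to 1.97 on the log2 scale). The muscle markers there summed to between 60.1 and 65.4 against 16.1 to 21.3. With piericidin the cycling markers summed to between 610 and 690 in LbNOX and 615 and 641 in mitoLbNOX cells. The part of these markers was not tested. The study reported that antimycin set off a p53 response in LbNOX cells, which inhibited Atf4. Atf4 changed by -0.51 in these LbNOX libraries with antimycin, and the part of that response in the changes here was not tested.

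Tgfb3 fell less with piericidin in LbNOX cells, where the log2 change of -0.20 (adjusted p = 0.174) differed from that in Luc cells by 1.26 (SE 0.129, adjusted p = 2.44e-09). With oligomycin it fell in LbNOX cells by 0.72 (SE 0.09, adjusted p = 1.5e-07), from 48.3, 51.1 and 49.95 CPM to 28.5, 28.2 and 32.8, a smaller fall than in Luc cells by 0.55 (SE 0.129, adjusted p = 0.0059). With antimycin Tgfb3 fell by 1.18 in mitoLbNOX cells (SE 0.092, adjusted p = 4.96e-12), further than in Luc cells by 0.41 (adjusted p = 0.0143, and 0.055 without mitoLbNOX DMSO replicate 2).

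Counting genes that passed, LbNOX cells had 2 of 7 with piericidin (beside 8.87% of all genes), 4 with antimycin (beside 46.1%) and 2 with oligomycin (beside 35.2%). One of the 2 with piericidin, Tgfb2 (0.52, adjusted p = 0.0432), was lost without any 1 of the 6 libraries (adjusted p 0.0755 to 0.137), and one of those with oligomycin, Inhba (0.24), without oligomycin replicate 3 (0.18, adjusted p = 0.0616). MitoLbNOX cells had 3 with piericidin (beside 11.2%) and 5 with antimycin (beside 47.7%). Of the 3, Inhbb (0.78, adjusted p = 0.0306) was lost without 4 of the 6 libraries (adjusted p 0.0816 to 0.159) and Tgfb3 (-0.34, adjusted p = 0.0093) without DMSO replicate 2 or piericidin replicate 3 (adjusted p 0.0562 to 0.0917). NDI1 cells with 2 samples a group had 0 of 7 with piericidin (beside 0.00835%) by edgeR and by DESeq2, with Tgfb2 alone below an unadjusted p of 0.05.

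The tests of a difference from the Luc response passed for 3 of 7 genes with LbNOX and piericidin (beside 44.3%), 3 with mitoLbNOX and piericidin (beside 42.8%), 5 with NDI1 and piericidin (beside 42.7%), 4 with LbNOX and antimycin (beside 51.5%), 4 with mitoLbNOX and antimycin (beside 31.7%) and 2 with LbNOX and oligomycin (beside 7.98%). Of the 5 with NDI1, Fstl3 (-0.48, adjusted p = 0.0127) was lost without NDI1 piericidin replicate 1 (adjusted p = 0.0543). All of them share the Luc samples. Ddit3 responses also differed from those in Luc cells in these tests, by -3.52, -3.04 and -4.39 for piericidin in the order LbNOX, mitoLbNOX and NDI1, and by -4.06 with LbNOX and -0.75 with mitoLbNOX for antimycin. Thus with mitoLbNOX and antimycin the Ddit3 response was smaller by 0.75 and the Inhba response by 2.02.

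A few genes also differed between the transduced lines with DMSO. Each enzyme was carried by its own line, so enzyme and line cannot be told apart. With DMSO, LbNOX differed from Luc in Bmp4 (higher by 1.15, SE 0.236, adjusted p = 0.00343), Inhbb (-0.94, SE 0.24, adjusted p = 0.0255) and Inhba (0.30, SE 0.064, adjusted p = 0.00505), which makes 3 of 7 (beside 2.68%). Inhbb was lost without any 1 of the 6 libraries (adjusted p 0.0507 to 0.126) and Inhba without LbNOX DMSO replicate 3 (0.27, adjusted p = 0.0527). MitoLbNOX differed in 1 of 7 (beside 1.77%), with Bmp4 higher by 1.08 (SE 0.237, adjusted p = 0.00903), which was lost without Luc DMSO replicate 1 or 3 or mitoLbNOX DMSO replicate 2 (adjusted p 0.0503 to 0.0619). Bmp4 read 6.01, 6.92 and 5.68 CPM with Luc, 14.0, 14.3 and 13.1 with LbNOX, 13.4, 14.8 and 11.1 with mitoLbNOX and 16.2 and 21.8 with NDI1, so all 8 enzyme samples lay above the 3 Luc samples.

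After 48 h of chloramphenicol, Bmp4 fell in Luc myoblasts from 9.87 and 8.78 CPM to 4.96 and 5.70 (-0.79, SE 0.171, adjusted p = 0.0244), the only 1 of 7 genes to pass (beside 8.45%). The call was lost without any 1 of the 4 libraries (adjusted p 0.0642 to 0.128) and by DESeq2 (adjusted p = 0.055). In LbNOX myoblasts Bmp4 read 19.0 and 20.6 CPM with DMSO and 18.3 and 20.1 with chloramphenicol, and 0 of 7 genes passed by edgeR or DESeq2 (beside 0.931%), with 0 below an unadjusted p of 0.05. The difference between Luc and LbNOX cells in this response was not tested. Inhba after chloramphenicol was 54.8 and 47.4 CPM in Luc cells against 41.0 and 41.1 (0.33, adjusted p = 0.119). Ddit3 changed by 1.95 there, and a link between them was not tested.

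In myotubes the question was the same for differentiated cells. Oligomycin lowered follistatin and the activin receptor, and Inhba did not rise. Fst read 86.5, 99.6 and 96.6 CPM with DMSO and 10.3, 12.3 and 9.51 with oligomycin, a log2 change of -3.14 (SE 0.167, adjusted p = 1.71e-13) and an 8.8-fold lower mean. With antimycin it read 57.0, 64.1 and 63.1 (-0.61, SE 0.141, adjusted p = 0.00403), with BAM15 48.0, 44.6 and 55.0 (-0.93, SE 0.144, adjusted p = 3.2e-05) and with piericidin 79.2, 87.9 and 82.5 (-0.17, adjusted p = 0.566), all in untransduced myotubes. All oligomycin samples lay below every other untransduced myotube sample given DMSO or a single inhibitor.

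Acvr2b had 20, 27 and 20 counts with DMSO and 1, 4 and 7 with oligomycin, or 2.14 ± 0.292 against 0.371 ± 0.29 CPM (SD, n = 3). Its log2 fold change was -2.51 (SE 0.458, adjusted p = 0.000131, and 5.79e-05 without the filter). Beside Fst, the genes that passed with oligomycin were Inhba (-0.29), Fstl3 (-0.24) and Tgfb3 (-0.17), each of which fell by less than 0.3 on the log2 scale, which made 4 of 7 genes (all lower, beside 33.3%). Fstl3 (adjusted p = 0.0324) was lost without 5 of the 6 libraries, all but oligomycin replicate 1 (adjusted p 0.0516 to 0.171). Inhba read 33.3, 32.99 and 36.9 CPM with DMSO and 29.6, 27.9 and 27.7 with oligomycin, and without the count filter its adjusted p was 0.0656.

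Piericidin passed for 0 of 7 genes in myotubes by edgeR and by DESeq2 (beside 8.99%), with Fstl3 and Bmp4 below an unadjusted p of 0.05, and antimycin for 1 of 7 (Fst, beside 12.9%). BAM15 passed for 4 of 7 (1 higher, 3 lower, beside 25.4%). Of these, Fstl3 rose from 48.2, 51.5 and 47.9 CPM to 69.4, 74.7 and 64.5 (0.51, SE 0.082, adjusted p = 5.94e-05), and Tgfb2 (-0.31) was lost without BAM15 replicate 1 (-0.26, adjusted p = 0.0534). Hypoxia passed for 3 of 7 (all higher, beside 22.1%), with Fstl3 at 75.2, 80.2 and 70.8 CPM (0.63, SE 0.082, adjusted p = 1.88e-06), the highest mean for this gene though it overlapped BAM15, and Inhba at 45.4, 49.3 and 46.6 (0.47, SE 0.073, adjusted p = 2.32e-05). The third, Tgfb3 (0.15, adjusted p = 0.0203), was lost without DMSO replicate 1 or hypoxia DMSO replicate 2 or 3 (adjusted p 0.0579 to 0.0955). The cycling markers were lower in hypoxia by 2.30 to 2.78 on the log2 scale, and their part was not tested.

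**Figure D3:**
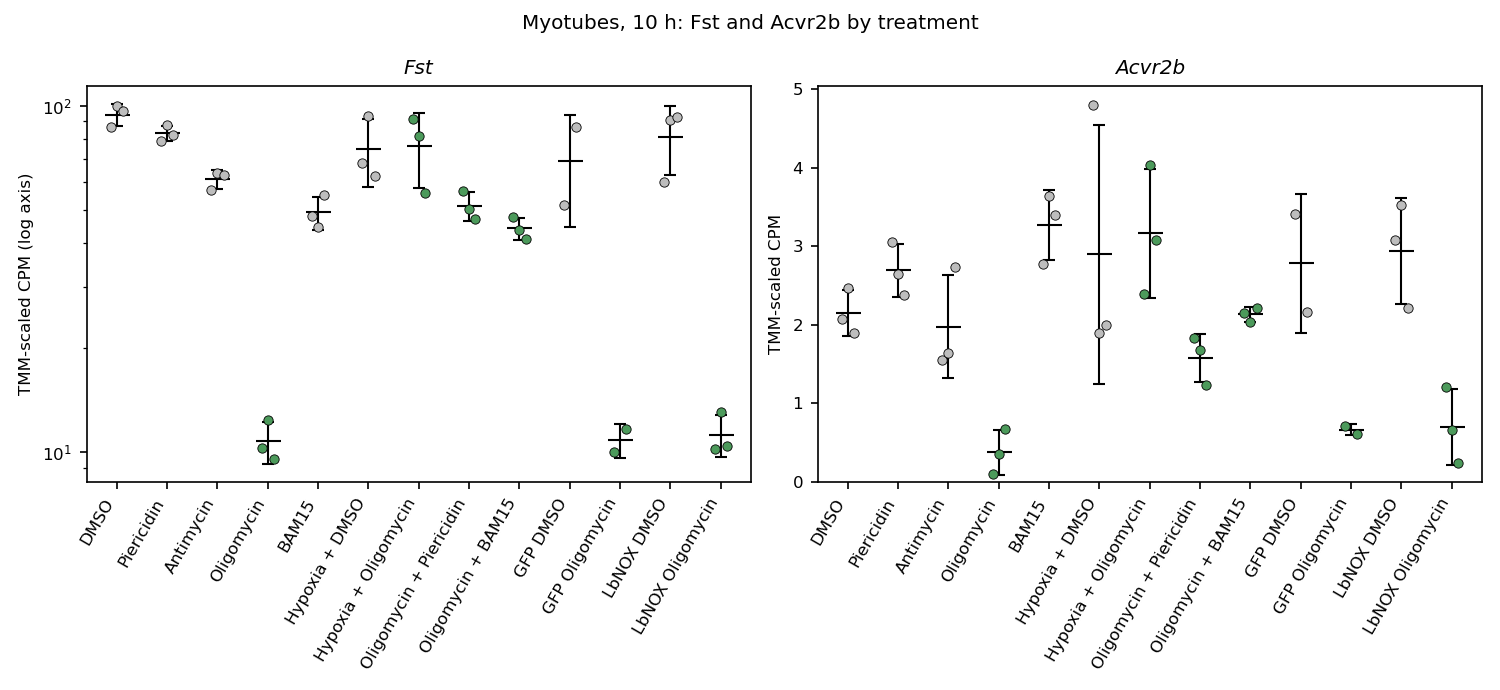
TMM-scaled CPM of Fst (log axis) and Acvr2b (linear axis from 0) in myotubes treated for 10 h. Points are samples (green with oligomycin), horizontal marks are means and bars SD. Fst falls from 94.2 to 10.7 CPM with oligomycin, reads 51.3 and 44.2 when piericidin or BAM15 is added, and reads 76.5 with oligomycin in hypoxia against 74.7 without.

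The combinations asked how the oligomycin response changed when piericidin or BAM15 was added or oxygen was low. With piericidin added to oligomycin, Fst read 56.7, 50.4 and 47.0 CPM, higher than with oligomycin alone by 2.27 (SE 0.169, adjusted p = 2.72e-10). With BAM15 added it read 47.6, 43.8 and 41.2, higher by 2.06 (SE 0.17, adjusted p = 9e-10). In hypoxia Fst was 68.1, 93.5 and 62.6 CPM with DMSO and 91.8, 81.7 and 55.9 with oligomycin, which overlapped (0.05, SE 0.142, adjusted p = 0.929), and the difference from the response in normal oxygen was 3.19 (SE 0.22, adjusted p = 9.78e-11).

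Acvr2b was also higher in the combinations than with oligomycin alone. It had 21, 17 and 13 counts with oligomycin and piericidin (2.07 above oligomycin, SE 0.47, adjusted p = 0.00217, and 0.00399 without the filter), 23, 23 and 22 with oligomycin and BAM15 (2.51, SE 0.457, adjusted p = 0.000158, and 8.82e-05 without it) and 22, 40 and 26 with oligomycin in hypoxia, where the response differed from that in normal oxygen by 2.66 (SE 0.58, adjusted p = 0.00186, and 0.00333 without it). It did not move with Fst throughout. With BAM15 alone, where Fst fell, Acvr2b was 3.27 ± 0.446 CPM against 2.14 ± 0.292 (SD, n = 3, log2 0.62, adjusted p = 0.212), and in day 1 cells, where Fst fell with oligomycin, it was 0.852 ± 0.289 against 1.01 ± 0.563, which overlapped. Adding piericidin to oligomycin passed for 2 of 7 genes (beside 20.9%), adding BAM15 for 2 (beside 26.1%), the genes beside Fst being Inhba (-0.36, adjusted p = 0.0014) and Fstl3 (0.49, adjusted p = 7.97e-05), oligomycin in hypoxia for 2 (beside 4.26%) and the difference between oxygen levels for 2 (beside 17.4%). In hypoxia the 2 were Fstl3 (-0.39, SE 0.082, adjusted p = 0.00465) and Bmp4 (0.50, adjusted p = 0.0218), and Bmp4 was lost without replicate 1 or 3 of either group (adjusted p 0.0651 to 0.141). In a fit of these 2 groups alone Fstl3 had an adjusted p of 0.0526. The gene beside Fst between oxygen levels, Inhba (0.31, adjusted p = 0.0382), was lost without 8 of the 12 libraries (adjusted p 0.0513 to 0.13), without the count filter (0.39), by DESeq2 (0.0883) and with plate position (0.0512).

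In the same comparisons Ddit3 changed with oligomycin by 4.06, by -2.57 when piericidin was added, by -1.77 when BAM15 was added and by 0.82 with oligomycin in hypoxia. The summed muscle markers lay between 16100 and 16600 CPM with oligomycin and between 14100 and 14500 with DMSO. Of the 7 markers 2 were higher and 3 lower with oligomycin (-0.33 to 1.29, median -0.07), and their part in the Fst change was not tested. Of the other pathway genes, 28 of 66 tested passed with oligomycin in myotubes (7 higher, 21 lower, 42.4%, beside 33.3% of all genes). The largest were Tgfbr2, the type II TGF-beta receptor gene (-1.44, SE 0.334, adjusted p = 0.00157), Snai2 (1.19, SE 0.119, adjusted p = 2.12e-08), Rgmb, which encodes a BMP co-receptor (-1.19, SE 0.183, adjusted p = 1.5e-05), and the integrin gene Itgb6 (-1.19, SE 0.133, adjusted p = 1.24e-07). Between DMSO myotubes and myoblasts, 52 of 67 passed (37 higher, 15 lower, 77.6%, beside 69.4% of all genes). The largest were the BMP family ligand Gdf5 (11.12, SE 0.437), the proteoglycan Dcn (8.36, SE 0.326), the BMP antagonist Chrdl1 (7.87, SE 0.311) and Lrrc32 (5.29, SE 0.579). The count filter asked for enough counts in some condition only, so genes this much higher in myotubes may have entered the fit through the state where they were high.

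Transduced myotubes repeated the oligomycin treatment with adenovirus. In GFP myotubes Fst fell from 51.7 and 86.6 CPM to 9.95 and 11.7 (-2.66, SE 0.287, adjusted p = 7.98e-06), and in LbNOX myotubes from 60.3, 91.1 and 92.9 to 10.2, 13.01 and 10.4 (-2.88, SE 0.233, adjusted p = 2.58e-07). Acvr2b went from 35 and 20 counts to 7 and 7 with GFP (-2.05, adjusted p = 0.00925, and 0.012 without the filter) and from 31, 37 and 20 to 14, 6 and 3 with LbNOX (-2.09, adjusted p = 0.00138, and 0.000352 without it). The GFP call for Acvr2b was lost without GFP DMSO replicate 1 or either oligomycin replicate (adjusted p 0.0505 to 0.0867). GFP cells had 4 of 7 genes past the test (all lower, beside 25.9%) and LbNOX cells 3 of 7 (all lower, beside 32%). Of the 4, Fstl3 (-0.38) was lost without GFP DMSO replicate 2 (-0.28, adjusted p = 0.0863) and Tgfb2 (-0.40) without that library or GFP oligomycin replicate 1 (adjusted p 0.118 to 0.133). The 3 myoblast markers summed to between 164 and 182 CPM with DMSO and 120 and 130 with oligomycin in GFP myotubes, and to between 163 and 168 and between 121 and 124 in LbNOX myotubes. By gene 1 was higher and 1 lower in each. Of the 7 muscle markers 2 were higher and 4 lower in each. The part of these markers was not tested. LbNOX against GFP with DMSO passed for 0 of 7 by edgeR and DESeq2 (beside 0.0242%), with Inhba alone below an unadjusted p of 0.05.

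In day 1 cells Fst fell with both inhibitors tested. It read 57.1, 48.8 and 56.7 CPM with DMSO, 25.6, 31.1 and 24.4 with piericidin (-0.997, SE 0.113, adjusted p = 0.00106) and 13.1, 15.2 and 16.4 with oligomycin (-1.84, SE 0.12, adjusted p = 7.69e-07). The 3 conditions did not overlap. Tgfb3 fell with oligomycin from 283, 283 and 295 to 193, 196 and 204 CPM (-0.52, SE 0.045, adjusted p = 8.99e-06). Oligomycin passed for 4 of 7 genes (all lower, beside 20.7%), among them Inhbb (-0.58, adjusted p = 0.0488), lost without any 1 of the 6 libraries (adjusted p 0.0653 to 0.15), and Tgfb2 (-0.31, adjusted p = 0.0266), lost without replicate 1 or 2 of DMSO or replicate 2 or 3 of oligomycin (adjusted p 0.0515 to 0.105). Piericidin passed for 1 of 7 (Fst, beside 2.75%). Inhba was 22.3, 24.4 and 24.4 CPM with piericidin and 19.8, 22.1 and 19.2 with oligomycin, against 23.5, 24.6 and 24.9 with DMSO. With oligomycin Ddit3 changed by 2.97, and with piericidin by -0.10 (adjusted p = 0.618). The cycling markers summed to between 133 and 150 CPM with DMSO, 104 and 117 with oligomycin and 112 and 119 with piericidin. Of the 3, 2 were lower past the test with oligomycin and 0 passed with piericidin, and their part was not tested.

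The responses of untransduced myotubes and Luc myoblasts, which also differed in serum, confluence, doxycycline and transduction, were compared in 1 fit. For Inhba the myotube response minus the myoblast response was -2.81 with piericidin (SE 0.083, adjusted p = 4.24e-21), -4.62 with antimycin (SE 0.083, adjusted p = 3.61e-26) and -0.96 with oligomycin (SE 0.083, adjusted p = 5.09e-10). For Bmp4 the difference was 2.51 with piericidin (SE 0.361, adjusted p = 1.45e-06) and 2.31 with antimycin (SE 0.355, adjusted p = 4.28e-06). For Fst it was -2.78 with oligomycin (SE 0.248, adjusted p = 1.04e-09) and -2.13 with antimycin (SE 0.206, adjusted p = 1.18e-09), and for piericidin -0.23 (adjusted p = 0.426). Tgfb2 differed by -2.61 with antimycin (SE 0.142, adjusted p = 5.95e-15). Differences passed for 5 of 7 genes with piericidin (beside 46.5%), 6 with antimycin (beside 47.9%) and 3 with oligomycin (beside 29%). Ddit3 differed by -4.19 with piericidin and -4.25 with antimycin, and by -0.01 (adjusted p = 0.936) with oligomycin.

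**Figure D4:**
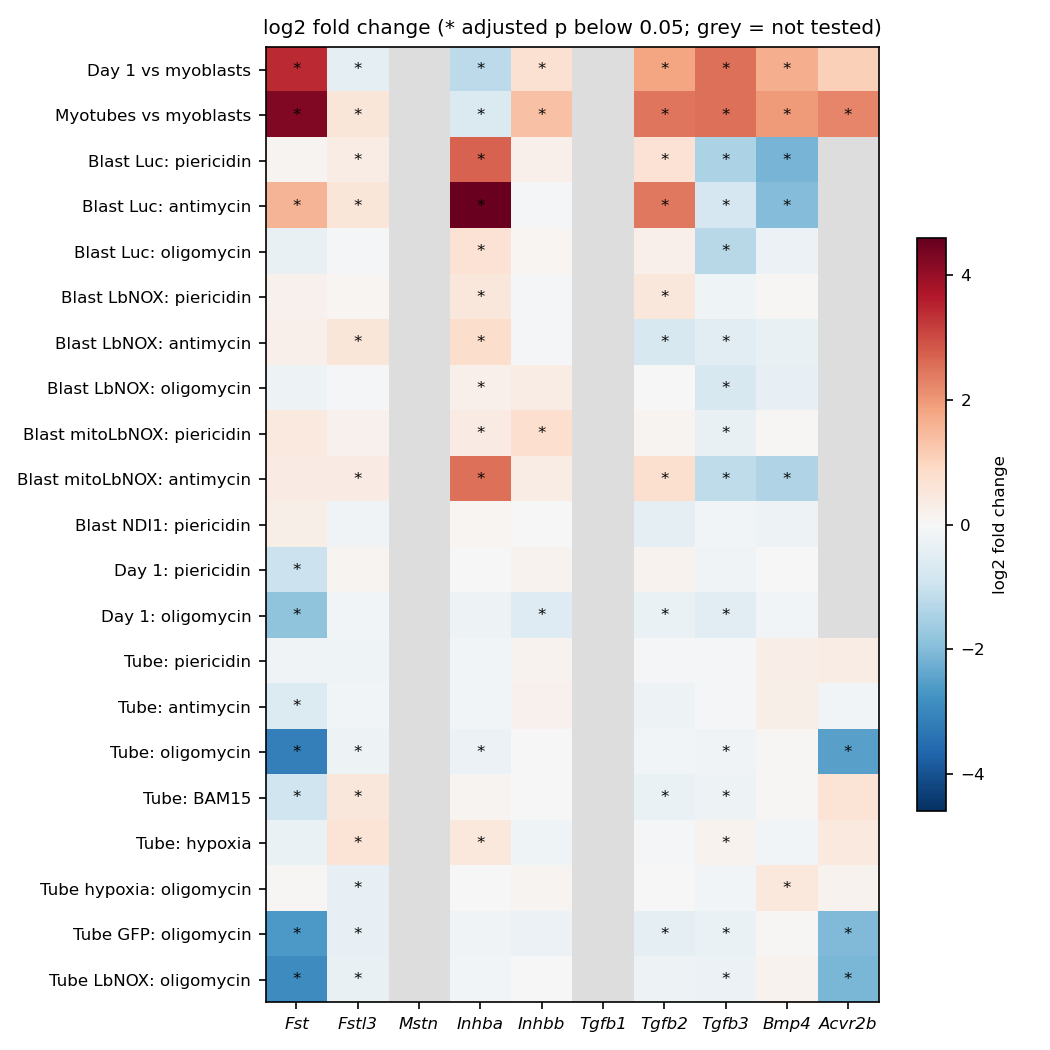
Log2 fold change (color, red higher and blue lower) of the 10 genes (columns) in 21 comparisons (rows), with a star where the adjusted p was below 0.05 and grey where a gene was not tested. The Inhba column is red in the Luc and mitoLbNOX antimycin rows (4.54 and 2.53), and the Fst column is blue in the oligomycin rows of day 1 cells (-1.84) and myotubes (-3.14).

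Across all 35 conditions each gene had its own order. Fst ranged from a mean of 3.90 CPM in Luc oligomycin myoblasts to 94.2 in DMSO myotubes, and its 2 highest conditions (DMSO and piericidin myotubes) overlapped. Inhba ranged from 20.4 in oligomycin day 1 cells to 1250 in Luc antimycin myoblasts, which stood alone above mitoLbNOX antimycin myoblasts at 360, and those in turn overlapped Luc piericidin myoblasts at 355. Tgfb2 was highest in DMSO myotubes (46.5) and next in Luc antimycin myoblasts (44.5), which overlapped. Tgfb3 ranged from 17.3 in Luc piericidin myoblasts to 301 in hypoxia DMSO myotubes, Bmp4 from 1.38 in Luc piericidin myoblasts to 30.0 in hypoxia oligomycin myotubes, Inhbb from 2.20 in NDI1 piericidin myoblasts to 14.3 in antimycin myotubes, and Fstl3 from 23.1 in oligomycin day 1 cells to 75.4 in hypoxia DMSO myotubes. The highest condition overlapped the next for Bmp4, Inhbb and Fstl3, and not for Tgfb3.

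Genes whose mean log2 level over the 35 conditions was most like each were found among 11445 candidates by Pearson correlation, given as a description since conditions share states and controls. They were Fam78a, Smim5 and Fbxw7 for Fst (r of 0.96, 0.96 and 0.954), Phlda1, Itga5 and Gm28592 for Inhba (0.938, 0.928 and 0.923), Myo10, Arhgap24 and Rgcc for Tgfb2 (0.948, 0.928 and 0.926), and Dapk2, Myo18a and Pdlim4 for Tgfb3 (0.99, 0.988 and 0.987). For Bmp4 they were Scara3, BC029722 and Leprot (0.95, 0.922 and 0.922), for Inhbb Igfbp4, Mospd1 and Col1a1 (0.967, 0.953 and 0.95) and for Fstl3 Rasl12, Pgk1 and Aplp1 (0.812, 0.774 and 0.774).

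By the GENCODE annotation of GRCm38, Inhba lies at chr13:16011851-16031621 on the plus strand with 5 merged exons, Fst at chr13:114452290-114458951 on the minus strand with 3, Bmp4 at chr14:46383520-46390669 on the minus strand with 4 and Acvr2b at chr9:119402118-119434995 on the plus strand with 9. The libraries did not keep strand, so counts may be shared where exons overlap another gene, as for Fstl3 with Prss57 (1157 bases), Tgfb3 with Gm48008 (257) and Gm37804 (163), Tgfb2 with Gm29491 (124), Fst with Gm47040 (115) and Bmp4 with Gm15217 (89).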

How the data were processed

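RNA from 96 samples of C2C12 cells had been sequenced as Smart-seq2 libraries, which keep no strand. The authors quantified reads with kallisto (0.44, per the processing notes, which also list bcl2fastq 2.20.0.422 and mm10) against mouse transcripts and transgene sequences, summarised transcripts to genes and summed over flow cells. The deposited values are estimated counts, whole numbers without normalization, for 54146 genes and 4 transgenes. Groups came from the sample labels.

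Levels are counts per 1000000 (CPM) scaled by TMM over all 96 samples. Tests used edgeR 4.0.16 (R 4.3.3) in 6 fits and 41 comparisons, on genes that reached 16 counts in all replicates of some condition in the fit, with quasi-likelihood F tests, TMM and Benjamini-Hochberg adjustment over all genes tested in a comparison. The threshold was 0.05, and the SE is the absolute log2 fold change over the square root of F. The scripts were tested on simulated data. Of 87 replicate pairs, 0 were identical, and the smallest chi-square per gene was 2.65. Totals ran from 6458295 to 15366745 counts, so 3 counts are 0.184 to 0.481 CPM. Such floors and intervals cover counting error only.

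Named beside the 10 genes were up to 4 pathway genes per comparison with the largest change among those that passed, the 3 genes most like each gene with a mean of at least 5 CPM in its highest condition, and Atf4 and Ddit3. Some pathway genes that this rule would name are not reported here. Likeness used log2 of CPM plus 1. The 10 genes and the lists were chosen with earlier results of these data known. Of the listed pathway genes Hjv was not matched, and Ccn2 was counted under its older symbol Ctgf. Alternatives were DESeq2 (1.42.0) size factors, no count filter, DESeq2's Wald test, a replicate block, outer or inner well of the plate, the compared groups alone, and leaving out each library.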

Additional observations from a re-analysis of the deposited data

Results flagged for a closer look

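Several of the 10 genes responded differently to an inhibitor in one group of cells than in another, by a test of the difference itself. Each value is a difference of log2 fold changes, and each passed edgeR's test at an adjusted p below 0.05. Between untransduced myotubes and Luc myoblasts (myotube response minus myoblast response), the differences with piericidin were -0.50 for Fstl3, -2.81 for Inhba, -0.72 for Tgfb2, 1.45 for Tgfb3 and 2.51 for Bmp4. With antimycin they were -2.13 for Fst, -0.64 for Fstl3, -4.62 for Inhba, -2.61 for Tgfb2, 0.77 for Tgfb3 and 2.31 for Bmp4, and with oligomycin -2.78 for Fst, -0.96 for Inhba and 1.10 for Tgfb3. Day 1 cells were not part of this comparison.

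In myoblasts, the piericidin response minus that of Luc cells was -2.20 for Inhba, 1.26 for Tgfb3 and 2.18 for Bmp4 with LbNOX. It was -2.34 for Inhba, 1.12 for Tgfb3 and 2.20 for Bmp4 with mitoLbNOX. With NDI1, for which there were 2 samples a group, it was -0.48 for Fstl3, -2.61 for Inhba, -1.09 for Tgfb2, 1.32 for Tgfb3 and 1.90 for Bmp4. The antimycin response minus that of Luc cells was -1.34 for Fst, -3.73 for Inhba, -3.14 for Tgfb2 and 1.67 for Bmp4 with LbNOX and -1.17 for Fst, -2.02 for Inhba, -1.68 for Tgfb2 and -0.41 for Tgfb3 with mitoLbNOX. The oligomycin response with LbNOX differed by -0.44 for Inhba and 0.55 for Tgfb3. All of these share the Luc samples, so they are not independent of each other.

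In myotubes, the oligomycin response in hypoxia minus that in normal oxygen was 3.19 for Fst, 0.31 for Inhba and 2.66 for Acvr2b. Without the count filter the adjusted p was 0.00333 for Acvr2b, which passed the filter only through conditions where it was high. Inhba did not pass without the filter (adjusted p = 0.39), by DESeq2 (0.0883) or with plate position (0.0512). Acvr2b had 46 counts at most in any library. The cause of these differences was not tested.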

How the results depend on the processing

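The 10 genes passed the test in 137 pairs of gene and comparison, 7 of them of Acvr2b, which is included in the counts here and left out of those in the report. No pair changed direction under any alternative run. With DESeq2 size factors, and with the replicate block, all 137 kept their side of the threshold. DESeq2's Wald test lost 4, plate position 4, no count filter 12 and the fit of the compared groups alone 12 of the 136 it could test. All day 1 libraries lay in outer wells, so plate position could not be fitted within day 1 cells and their pairs could not change. Without the filter, adjusted p for the lost pairs was 0.0531 to 0.39. They were Tgfb2 for LbNOX piericidin and for piericidin against oligomycin, Inhbb for mitoLbNOX piericidin and LbNOX against Luc, Tgfb3 for mitoLbNOX with antimycin against Luc and for hypoxia, Fstl3 and Inhba for oligomycin in myotubes, Fstl3 for GFP oligomycin, Inhba for the difference between oxygen levels, and Inhbb and Tgfb2 for day 1 oligomycin. DESeq2 lost the last 3 and Bmp4 for Luc chloramphenicol (0.055 to 0.0883). Plate position lost Acvr2b between states, Inhbb for mitoLbNOX piericidin, Fstl3 for oligomycin in myotubes and Inhba between oxygen levels (0.0512 to 0.0894). Leaving out 1 library lost 21 of the pairs at least once, in 70 of 1028 values.

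The number of genes that passed changed by over 1.5 times as follows. LbNOX piericidin myoblasts went from 2 to 1 without the filter and in the compared groups alone, and LbNOX against Luc from 3 to 1 in the compared groups alone. Luc chloramphenicol went from 1 to 0 with DESeq2 and in the compared groups alone, and antimycin myotubes from 1 to 2 with plate position and in the compared groups alone. Without the filter, oligomycin went from 5 to 3 in myotubes and from 4 to 2 in day 1 cells, the latter also 2 with DESeq2. In the compared groups alone, oligomycin in hypoxia went from 2 to 0 and in GFP myotubes from 5 to 3. Leaving Acvr2b out, the difference between oxygen levels went from 2 to 1 without the filter and with DESeq2.

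Without 1 library the counts ranged from 1 to 1 for LbNOX piericidin, 1 to 2 for LbNOX oligomycin, 1 to 3 for mitoLbNOX piericidin, 1 to 2 for LbNOX against Luc, 0 to 2 for mitoLbNOX against Luc, 0 to 0 for Luc chloramphenicol, 1 to 2 for oligomycin in hypoxia, 3 to 5 for GFP oligomycin and 2 to 3 for day 1 oligomycin. Where a group was left with 1 sample, it was assumed to vary like the others. The cause of these changes was not tested.

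Samples of different conditions share replicate numbers, but residuals of same-numbered samples had mean correlations of -0.046 to 0.044, so the numbers were not read as pairs. With the replicate block 139 pairs passed in place of 137. Depth limits Mstn, Tgfb1 and Acvr2b most, at medians of 10 counts for Tgfb1 and 7 for Acvr2b.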

Other observations

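Transduced myotubes were also treated with piericidin, which entered no comparison above. In GFP myotubes Fst read 63.8 and 45.5 CPM with piericidin, and in LbNOX myotubes 55.5, 43.0 and 53.0. With DMSO it read 51.7 and 86.6 with GFP, which overlapped, and 60.3, 91.1 and 92.9 with LbNOX, which all lay above the piericidin samples. This difference was not tested. Inhba, the activin A subunit gene, read 27.9 and 31.4 CPM in the GFP samples and 31.3, 29.1 and 28.5 in the LbNOX samples, against 30.7 and 30.5 and 37.2, 33.9 and 34.8 with DMSO. Tgfb3 read 201 and 218 CPM with GFP and 207, 217 and 216 with LbNOX, against 201 and 199 and 201, 207 and 202 with DMSO. Mstn had 2 and 4 counts with GFP and 0, 8 and 5 with LbNOX.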
